A study of Mus musculus with 6 samples.

Results

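The 10 genes described here encode the chains of MHC class II molecules, the proteins that load them with peptide, the regulator of their transcription and a protease of their maturation. They are H2-Aa, H2-Ab1, H2-Eb1, H2-DMa, H2-DMb1, H2-DMb2, H2-Oa, H2-Ob, Ciita and Ctss, chosen by symbol. Each was read from the probe sets annotated with exactly 1 gene symbol, and all 10 had 1 such probe set, out of 22180 genes with one. RNA came from mouse cells described as inflammatory monocytes, taken by flow sorting through a gate of CD11b+ CD11c- cells with high Ly6C. One group of 3 arrays holds cells from spleen and the other group of 3 arrays holds cells from tumor, all on Mouse Gene 2.0 ST arrays. Every mouse had been given Th9 cells, a kind of helper T cell that makes interleukin 9, 10 days earlier, so no group without Th9 cells enters any comparison. The strain field of the labels reads Th9, and the background strain, the age of the mice and the kind of tumor are left unstated by the labels. The labels tie no sample to a mouse of its own, so the spread behind the p-values is that between samples and may be technical.

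MHC class II molecules display peptides from endosomes to CD4-positive T cells. Each is a pair of an alpha and a beta chain, in mice of the A type (H2-Aa with H2-Ab1) or the E type (with the beta chain H2-Eb1). The invariant chain fills the groove in the endoplasmic reticulum, cathepsin S (Ctss) trims it in endosomes to a short remnant, and H2-M (H2-DMa with H2-DMb1 or H2-DMb2) exchanges that remnant for peptide. H2-O (H2-Oa with H2-Ob), known best from B cells, restrains H2-M. Ciita encodes the coactivator that the class II promoters need; it binds no DNA itself and is recruited by the RFX, CREB and NF-Y factors bound to the X and Y boxes. Monocytes are known to gain class II when they turn into cells that present antigen.

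The promoters of 6 of the 10 genes hold a common spaced motif, printed here because Ciita is known to act at class II promoters. The stretches printed here come from windows of 300 bases around each gene's start in RefSeq (GRCm38.p6), which holds a window for 8 of the 10 genes. H2-Ab1 and Ciita have no entry. In H2-Aa (chr17:34287863-34287912, minus strand), H2-Eb1 (chr17:34305767-34305816, plus strand), H2-DMb1 (chr17:34153089-34153138, plus strand), H2-DMb2 (chr17:34145118-34145167, plus strand), H2-Oa (chr17:34092295-34092344, plus strand) and H2-Ob (chr17:34238807-34238856, plus strand) the letters AAC are followed after 23 to 26 bases by TGATTGG. Capitals mark these letters, TGATTGG holding the inverted CCAAT of the Y box. The same holds for H2-Eb2 (chr17:34325534-34325583, plus strand), a neighbouring class II beta chain gene.
H2-Aa: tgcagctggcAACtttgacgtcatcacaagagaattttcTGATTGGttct
H2-Eb1: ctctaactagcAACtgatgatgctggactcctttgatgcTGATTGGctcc
H2-DMb1: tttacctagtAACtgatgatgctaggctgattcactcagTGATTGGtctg
H2-DMb2: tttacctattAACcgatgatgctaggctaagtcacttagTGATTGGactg
H2-Oa: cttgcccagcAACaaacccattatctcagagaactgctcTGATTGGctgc
H2-Ob: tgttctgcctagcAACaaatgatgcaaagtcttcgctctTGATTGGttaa
H2-Eb2: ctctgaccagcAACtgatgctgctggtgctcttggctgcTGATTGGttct
TGATTGG starts between 45 (H2-Oa) and 102 (H2-Eb2) bases before the start site. On either strand TGATTGG alone occurs in 7.82% of all 32851 windows, and the spaced pair of motifs in 0.460%. The motif and its spacing were read off these windows, so the shares are a description. Neither of the 2 windows of H2-DMa holds TGATTGG. The window of Ctss lacks it too, and holds GAAA followed after 2 bases by GAAA, letters found in interferon response elements and in 3.44% of windows on either strand, at chr3:95526745-95526794 (plus strand), shown with the GAAA repeats in capitals.
Ctss: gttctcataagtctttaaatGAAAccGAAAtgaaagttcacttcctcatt

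Levels are log2(intensity + 1), and differences are tumor minus spleen on that scale, ± SE. Array medians lay at 4.50 to 4.51 on the 4 arrays numbered 1 and 2, and at 4.73 and 4.76 on the arrays numbered 3. The 4 arrays numbered 1 and 2 held exactly equal values with each other at 2449 to 3534 of 41345 probe sets, none of them with an array numbered 3, and the arrays numbered 3 shared 12. The arrays numbered 3 thus stood apart in both groups, and the cause was not tested. Results are given beside fits that take the replicate number as a block, and for the arrays numbered 1 and 2 alone. Limma called 1953 of 18458 genes tested (10.6%) at an adjusted p under 0.05. The genes behind the gate were read first. Itgam, the gene of CD11b, fell from 10.04 ± 0.15 in spleen to 9.19 ± 0.22 in tumor (SD, n = 3), by 0.85 ± 0.17 (adjusted p = 0.0150), a call lost without spleen 2, tumor 1 or tumor 2 (adjusted p up to 0.0802). Ly6c2, behind the Ly6C stain, had levels of 6.81 ± 0.58 (SD, n = 3) in spleen and 8.29 ± 0.40 (SD, n = 3) in tumor. Itgax, the gene of CD11c, the marker the sort selected against, was at 11.16 ± 0.12 and 10.31 ± 0.17, a difference of -0.85 ± 0.16 (adjusted p = 0.00987, or adjusted p = 0.0594 without tumor 1). In both groups Itgax thus had a higher level than Itgam and Ly6c2. These are intensities of different probe sets, so the order does not rank the RNA amounts of these genes. Ccr2, a monocyte marker, lay at 6.86 in spleen and 5.93 in tumor. Whether the cells kept to the gate was not tested. In such sorted samples, fewer cells that carry class II and less class II RNA per cell cannot be told apart.

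The 3 chain genes H2-Aa, H2-Ab1 and H2-Eb1 were lower in tumor by small amounts, none past the threshold. H2-Eb2, a chain gene outside the 10, fell by 1.30 and is given below with its neighbours. H2-Aa, the alpha chain of the A molecule (probe set 17343813, Entrez gene 14960), had levels of 11.85, 11.82 and 11.91 on spleen arrays 1 to 3 and of 11.57, 11.70 and 11.78 on tumor arrays 1 to 3. All 3 tumor values lay below all 3 spleen values. The difference was -0.18 ± 0.14 (95% interval -0.50 to 0.14, adjusted p = 0.590). H2-Ab1, its beta chain partner (probe set 17336494, Entrez gene 14961), had levels of 13.08, 13.05 and 13.13 in spleen and 12.86, 12.96 and 12.98 in tumor. Again no tumor value reached a spleen value, and the difference was -0.15 ± 0.13 (95% interval -0.46 to 0.16, adjusted p = 0.663). H2-Ab1 lay only 0.50 to 0.74 below the highest level of any probe set on the same array, and whether the scale is compressed there was not tested. H2-Eb1, the beta chain of the E molecule (probe set 17336502, Entrez gene 14969), had levels of 11.64, 11.64 and 11.45 in spleen and 11.30, 11.40 and 11.37 in tumor. The groups did not overlap, and the difference was -0.22 ± 0.14 (95% interval -0.54 to 0.10, adjusted p = 0.457). With the replicate block none of the 3 chain genes passed the threshold either, with adjusted p between 0.137 (H2-Eb1) and 0.274 (H2-Ab1). The widest of the 3 intervals, that of H2-Eb1, reaches down to -0.54.

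The H2-M genes had the differences farthest below 0 among the 10, and 1 of the 3 was called. H2-DMa, its alpha chain (probe set 17336407, Entrez gene 14998), had levels of 9.91, 9.99 and 10.04 in spleen and 9.18, 9.48 and 9.31 in tumor. The tumor arrays all lay below the spleen arrays, with no overlap. The gene fell by 0.66 ± 0.15 (95% interval -0.99 to -0.32), to 63.4% of its spleen value, with an adjusted p = 0.0244, or adjusted p = 0.00206 with the replicate block. Its call was lost when spleen 1, spleen 2 or tumor 1 was left out, with adjusted p up to 0.122, and among the arrays numbered 1 and 2 alone (adjusted p = 0.0650), where the difference was -0.62. H2-DMb1, a beta chain of H2-M (probe set 17336422, Entrez gene 14999), had levels of 5.70, 5.69 and 6.25 in spleen and 4.89, 5.10 and 5.89 in tumor. Tumor 3 lay above spleen 1 and 2, and both arrays numbered 3 were the highest of their group. The difference was -0.59 ± 0.28 (95% interval -1.22 to 0.05, adjusted p = 0.282). With the replicate block the adjusted p = 0.00664, and among numbers 1 and 2 alone 0.0285 with a difference of -0.70. Single arrays moved the difference both ways, to -0.88 without tumor 3 (adjusted p = 0.0395) and to -0.38 without tumor 1 (adjusted p = 0.690). H2-DMb2, the other beta chain (probe set 17336414, Entrez gene 15000), had levels of 8.24, 8.003 and 9.23 in spleen and 7.14, 7.61 and 8.31 in tumor. Here too tumor 3 lay within the spleen range. The difference was -0.81 ± 0.37 (95% interval -1.66 to 0.05, adjusted p = 0.266), with an adjusted p = 0.00466 under the replicate block and 0.107 among numbers 1 and 2 alone. It shrank to -0.44 without spleen 3 (adjusted p = 0.538) and to -0.53 without tumor 1 (adjusted p = 0.666). The beta chain genes are close copies of each other, so which of them a probe set reads is uncertain.

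The subunits of H2-O, the inhibitor of H2-M, differed less. H2-Oa (probe set 17336396, Entrez gene 15001) had levels of 8.58, 8.62 and 8.98 in spleen and 8.17, 8.43 and 8.63 in tumor. The groups overlapped through tumor 3. The difference was -0.32 ± 0.18 (95% interval -0.74 to 0.10, adjusted p = 0.407), and with the replicate block the adjusted p = 0.0437. It shrank to -0.19 without spleen 3 (adjusted p = 0.660) and to -0.20 without tumor 1 (adjusted p = 0.820). H2-Ob (probe set 17336476, Entrez gene 15002) had levels of 7.24, 7.24 and 7.89 in spleen and 6.98, 6.92 and 7.33 in tumor. Tumor 3 again lay above spleen 1 and 2, and the difference was -0.38 ± 0.22 (95% interval -0.88 to 0.12, adjusted p = 0.409, or 0.0278 with the replicate block). Without spleen 3 it was -0.16 (adjusted p = 0.717). Among numbers 1 and 2 alone neither subunit passed, with adjusted p = 0.190 for H2-Oa and 0.0647 for H2-Ob.

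Ciita, the coactivator of the class II promoters (probe set 17322842, Entrez gene 12265), had levels of 9.25, 9.23 and 9.43 in spleen and 8.71, 8.73 and 9.03 in tumor. Every tumor array lay below every spleen array. The difference was -0.48 ± 0.16 (95% interval -0.84 to -0.12), or 71.6% of the spleen value, with an adjusted p = 0.100 that missed the threshold. It passed with the replicate block (adjusted p = 0.00646), among numbers 1 and 2 alone (-0.52, adjusted p = 0.0185) and after quantile normalization (-0.56, adjusted p = 0.00716), median centring (adjusted p = 0.0144) or cyclic loess (-0.40, adjusted p = 0.0317). Over all alternatives its difference ran from -0.59 to -0.40 and its adjusted p from 0.00315 to 0.337.

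Ctss, the cathepsin that trims the invariant chain (probe set 17400375, Entrez gene 13040), had levels of 12.79, 12.80 and 12.94 in spleen and 12.77, 12.67 and 12.99 in tumor. The groups overlapped, and tumor 3 was the highest of the 6 arrays. These levels lay 0.59 to 0.90 below the highest of any probe set on the same array. Whether the scale is compressed there was not tested. The difference was -0.03 ± 0.15 (95% interval -0.37 to 0.31, adjusted p = 0.968). Its sign turned under quantile normalization (0.08), under cyclic loess (0.02) and without spleen 3 or tumor 2, and it was called under none of the alternatives.

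**Figure D1:**
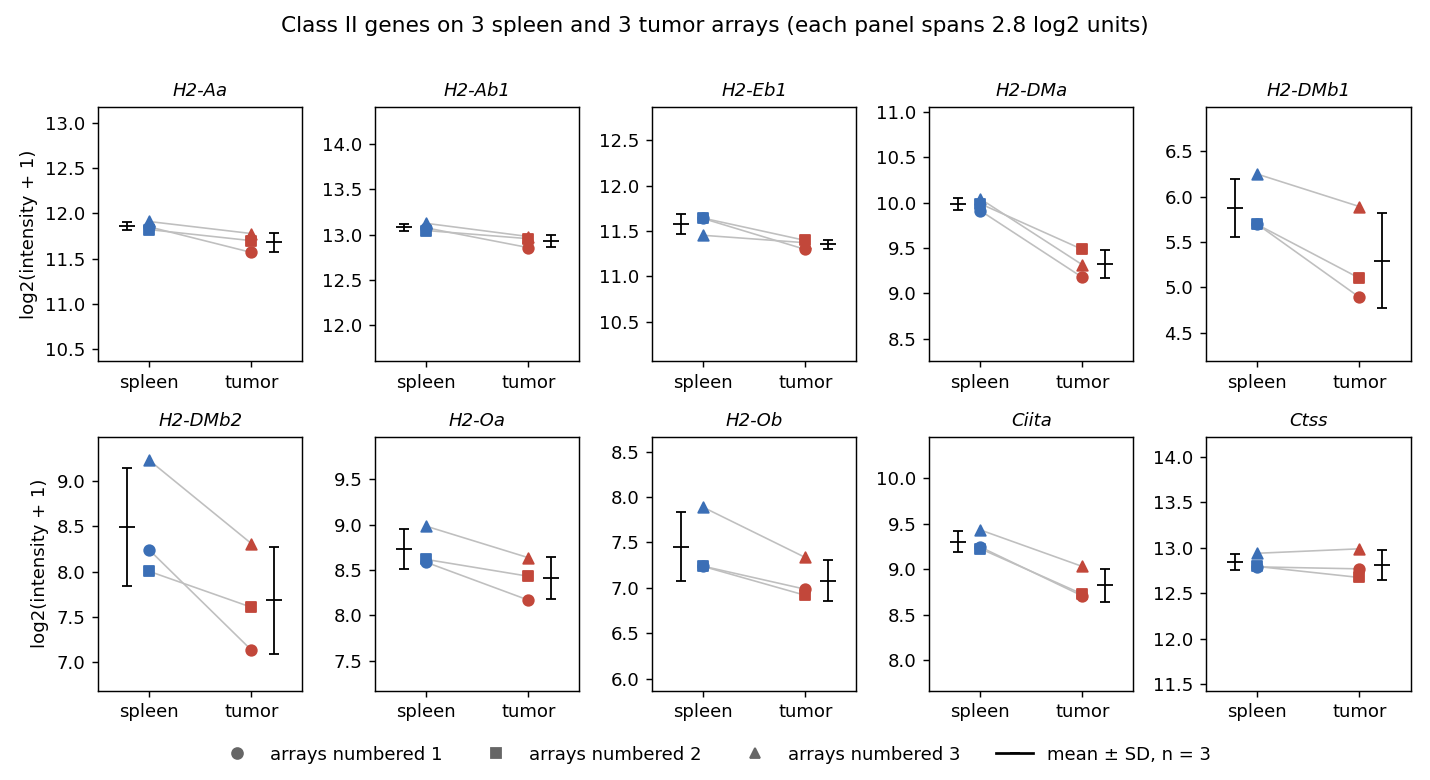
Level of each of the 10 genes, as log2(intensity + 1), on the 3 spleen arrays (blue) and the 3 tumor arrays (red), with grey lines joining arrays of equal number and black bars for mean ± SD (n = 3). Each panel spans the same range, so slopes can be compared: H2-DMa falls by 0.66, Ctss stands at -0.03, and the triangles (number 3) stand above the rest in H2-DMb1, H2-DMb2 and H2-Ob.

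Of the 10 genes, 1 fell, 0 rose and 9 were not called, beside 4.85% of all genes tested called lower and 5.73% called higher (10.6% in either direction). At an unadjusted p under 0.05 limma had 2 of the 10 lower (H2-DMa and Ciita) and 0 higher. All 10 differences lay below 0, as did 58.6% of all genes tested, and their median was -0.35 against -0.05 over all genes tested. In 5 of the 10 (H2-Aa, H2-Ab1, H2-Eb1, H2-DMa and Ciita) the 3 tumor values lay below the 3 spleen values, as they did in 15.6% of the genes tested. With the replicate block 6 of the 10 fell (H2-DMa, H2-DMb1, H2-DMb2, H2-Oa, H2-Ob and Ciita) and 0 rose, beside 17.3% of all genes lower and 11.7% higher (29.0% in either direction) in that fit. The same count of 6 came from a fit that sets the arrays numbered 3 apart from the rest, a choice made after seeing the data, where 17.8% of all genes were lower and 11.8% higher. Among numbers 1 and 2 alone 2 of the 10 fell (H2-DMb1 and Ciita), and 0 rose, beside 8.41% of all genes lower and 7.53% higher.

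Equally numbered arrays showed the same direction in nearly all of these genes. In 9 of the 10 the tumor array lay below the spleen array in each of the 3 pairs, as it did for 33.0% of the genes tested. The exception was Ctss, at -0.02, -0.12 and 0.05 for numbers 1, 2 and 3. Ciita had the most even differences among the genes that fell under the block, at -0.54, -0.50 and -0.40. H2-DMb2 had the widest, at -1.11, -0.40 and -0.92. H2-DMa stood at -0.74, -0.50 and -0.73.

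**Figure D2:**
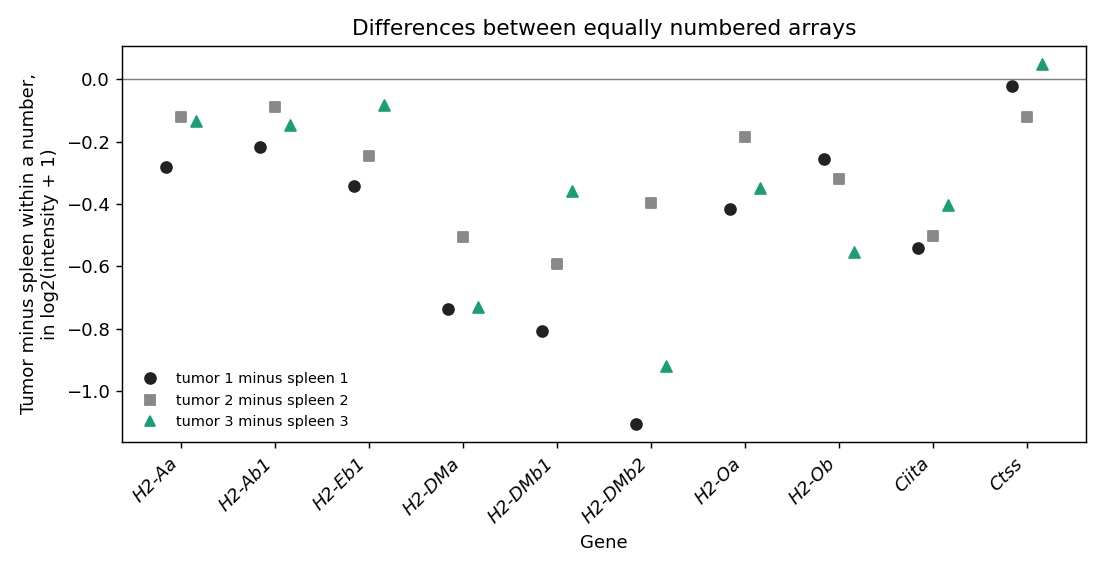
Tumor minus spleen within arrays of equal number, in log2(intensity + 1), for each of the 10 genes, with 1 symbol per number and a grey line at 0. All points lie below 0 except tumor 3 minus spleen 3 of Ctss, and H2-DMb2 spreads from -1.11 to -0.40.

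Along the chromosome the class II genes lie among genes of another route of presentation, and the neighbours differed in direction. RefSeq's order of genes from H2-Oa to H2-Eb2 places Brd2 beside H2-DMa, and Psmb9, Tap1, Psmb8 and Tap2 between H2-DMb1 and H2-Ob. Psmb8 and Psmb9 encode proteasome subunits that cut peptides for MHC class I, and Tap1 and Tap2 the transporter that carries them. Of the 6 tested neighbours that are not among the 10 genes, 4 rose, 1 fell and 1 was not called. The shares over all genes tested were 5.73% higher and 4.85% lower. Psmb9 went from 8.44 ± 0.11 to 9.97 ± 0.04 (SD, n = 3), a rise of 1.53 ± 0.14 (adjusted p = 2.4e-04). Tap1 rose by 1.34 ± 0.15 (adjusted p = 9.4e-04), from 9.75 to 11.09. Tap2 rose by 1.14 ± 0.15 (adjusted p = 0.00231), from 8.15 to 9.29. These rises kept their call in every alternative run. Psmb8 stood at 0.51 ± 0.14 (adjusted p = 0.0614, or 0.00458 with the replicate block). Brd2, a bromodomain protein of chromatin, rose by 0.73 ± 0.13 (adjusted p = 0.01004), a call lost without spleen 1 or spleen 2 (adjusted p up to 0.0627). H2-Eb2, the class II beta chain gene at the far end, had levels of 9.78, 9.84 and 10.22 in spleen and 8.58, 8.43 and 8.94 in tumor. It fell by 1.30 ± 0.19, to 40.7% of its spleen value (adjusted p = 0.00384), and kept its call in every alternative run (adjusted p up to 0.0270). All 9 class II genes of this stretch, H2-Eb2 included, had differences below 0, and the other 5 genes had differences above 0. Over all genes tested 58.6% of the differences lay below 0.

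**Figure D3:**
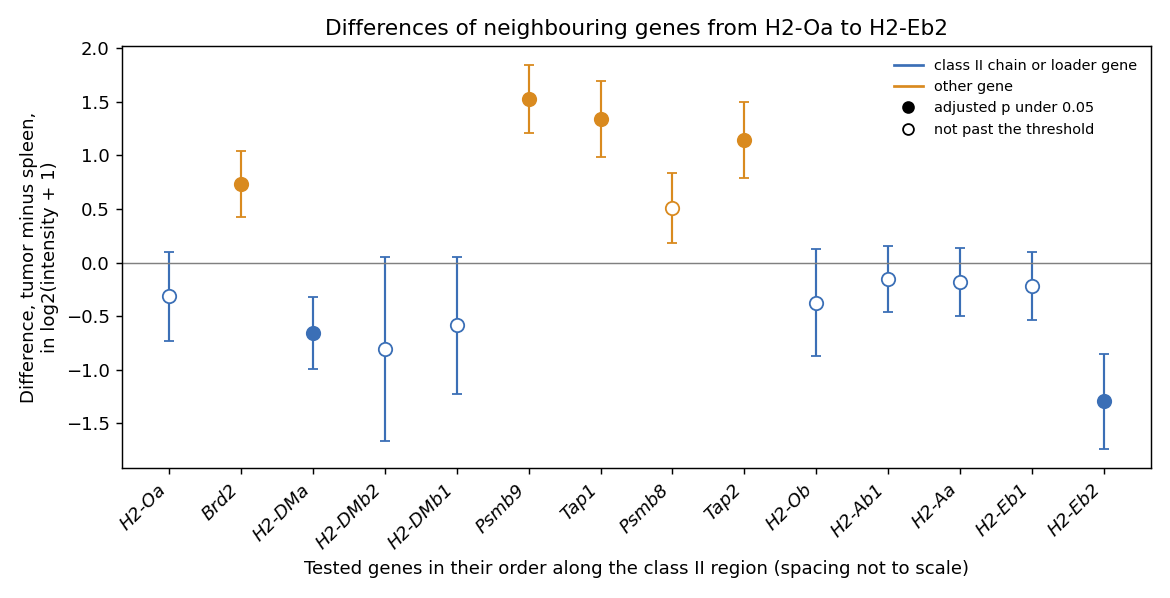
Difference, tumor minus spleen, in log2(intensity + 1), of the 14 tested genes from H2-Oa to H2-Eb2 in their order along the chromosome, with bars for the 95% interval, filled points for an adjusted p under 0.05, blue for class II genes and orange for others. The orange genes lie between 0.51 (Psmb8) and 1.53 (Psmb9), and the blue ones between -1.30 (H2-Eb2) and -0.15 (H2-Ab1).

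Genes that act on Ciita changed in both directions. Of 12 tested regulators of Ciita, 3 rose, 1 fell and 8 were not called, with a median difference of 0.24. Over all genes tested 5.73% were called higher and 4.85% lower. Irf1, a transcription factor that switches on Ciita after interferon gamma, had levels of 8.01, 8.29 and 8.07 in spleen and 9.95, 10.01 and 9.81 in tumor. It rose by 1.80 ± 0.15 (adjusted p = 1.4e-04), and no tumor value came near a spleen value. Irf2, which binds the same kind of site, rose by 1.18 ± 0.17 (adjusted p = 0.00317). Socs1, the inhibitor of JAK kinases, had levels of 6.42, 6.44 and 5.92 in spleen and 9.12, 9.26 and 8.74 in tumor, a rise of 2.78 ± 0.21 (adjusted p = 7.2e-05). Ifngr1, the chain of the interferon gamma receptor that binds the cytokine, had levels of 10.22, 10.17 and 10.19 in spleen and 9.26, 9.19 and 9.34 in tumor. It fell by 0.93 ± 0.13 (adjusted p = 0.00312). These 4 calls held in every alternative run. Ifngr2 (-0.11), Jak1 (0.00) and Jak2 (0.45), chosen after their values were seen, were not called, though Jak2 was with the replicate block (adjusted p = 0.0129). With the replicate block 6 of the 12 rose and 1 fell, beside 11.7% of all genes tested higher and 17.3% lower.

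Of the 10 genes of the promoter complex and its coactivators 1 rose, 0 fell and 9 were not called, with a median of 0.05. Among all genes tested 5.73% rose and 4.85% fell, or 10.6% in either direction. At an unadjusted p under 0.05 limma had 2 higher and 1 lower. Kat2b, an acetyltransferase that acts with Ciita, had levels of 7.004, 7.16 and 7.40 in spleen and 8.51, 8.13 and 8.88 in tumor. It rose by 1.32 ± 0.21 (adjusted p = 0.00570). Rfx5, the subunit of the factor that binds the X box, chosen after its value was seen, had levels of 7.78, 7.90 and 8.54 in spleen and 8.77, 8.81 and 9.45 in tumor. Its groups did not overlap, and its difference was 0.94 ± 0.26 (adjusted p = 0.0563, or 2.6e-04 with the replicate block). Over its alternatives the adjusted p of Rfx5 ran from 1.6e-04 to 0.185. With the replicate block 3 of the 10 rose and 1 fell, beside 11.7% of all genes tested higher and 17.3% lower.

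Among the endosomal enzymes and the turnover genes 1 of 10 and 1 of 9 were called, beside 10.6% of all genes tested. Of 10 genes of endosomal processing 1 rose, 0 fell and 9 were not called, with a median of -0.30. Of their differences 8 lay below 0, as did 58.6% of those of all genes tested. At an unadjusted p under 0.05 limma had 1 of these higher and 1 lower. Sppl2a, the intramembrane protease that clears the remnant of the invariant chain, had levels of 10.14, 10.18 and 10.48 in spleen and 11.33, 11.14 and 11.55 in tumor. It rose by 1.07 ± 0.17 (adjusted p = 0.00520), in every alternative run. Lgmn, an endosomal protease chosen after its value was seen, stood at -0.40 ± 0.16 (adjusted p = 0.166, or 0.0128 with the replicate block). With that block 1 of the 10 rose and 4 fell, beside 11.7% of all genes tested higher and 17.3% lower. Of 9 tested genes of class II turnover and traffic 0 rose, 1 fell and 8 were not called, and limma's unadjusted p was under 0.05 for 0 higher and 1 lower. The one that fell was Cd37, a tetraspanin of leukocyte membranes, by 0.76 ± 0.15 (adjusted p = 0.0154). Its call was lost without spleen 2, tumor 1 or tumor 2 (adjusted p up to 0.0868). The block gave 2 of the 9 lower and 0 higher, Cd81 being the other (adjusted p = 0.0335 in that fit). Marchf1, the ubiquitin ligase that sends class II to degradation, chosen after its value was seen, stood at 0.05 ± 0.28 (adjusted p = 0.971). H2-Ea, the alpha chain of the E molecule, had levels of 3.52 to 3.82 on the 6 arrays, near the 25th percentile of each array (3.46 to 3.61), and stood at 0.06 ± 0.15. The invariant chain gene Cd74 shares its probe set with another symbol, and Arl8b has no probe set of 1 symbol, so both were not analysed here.

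**Figure D4:**
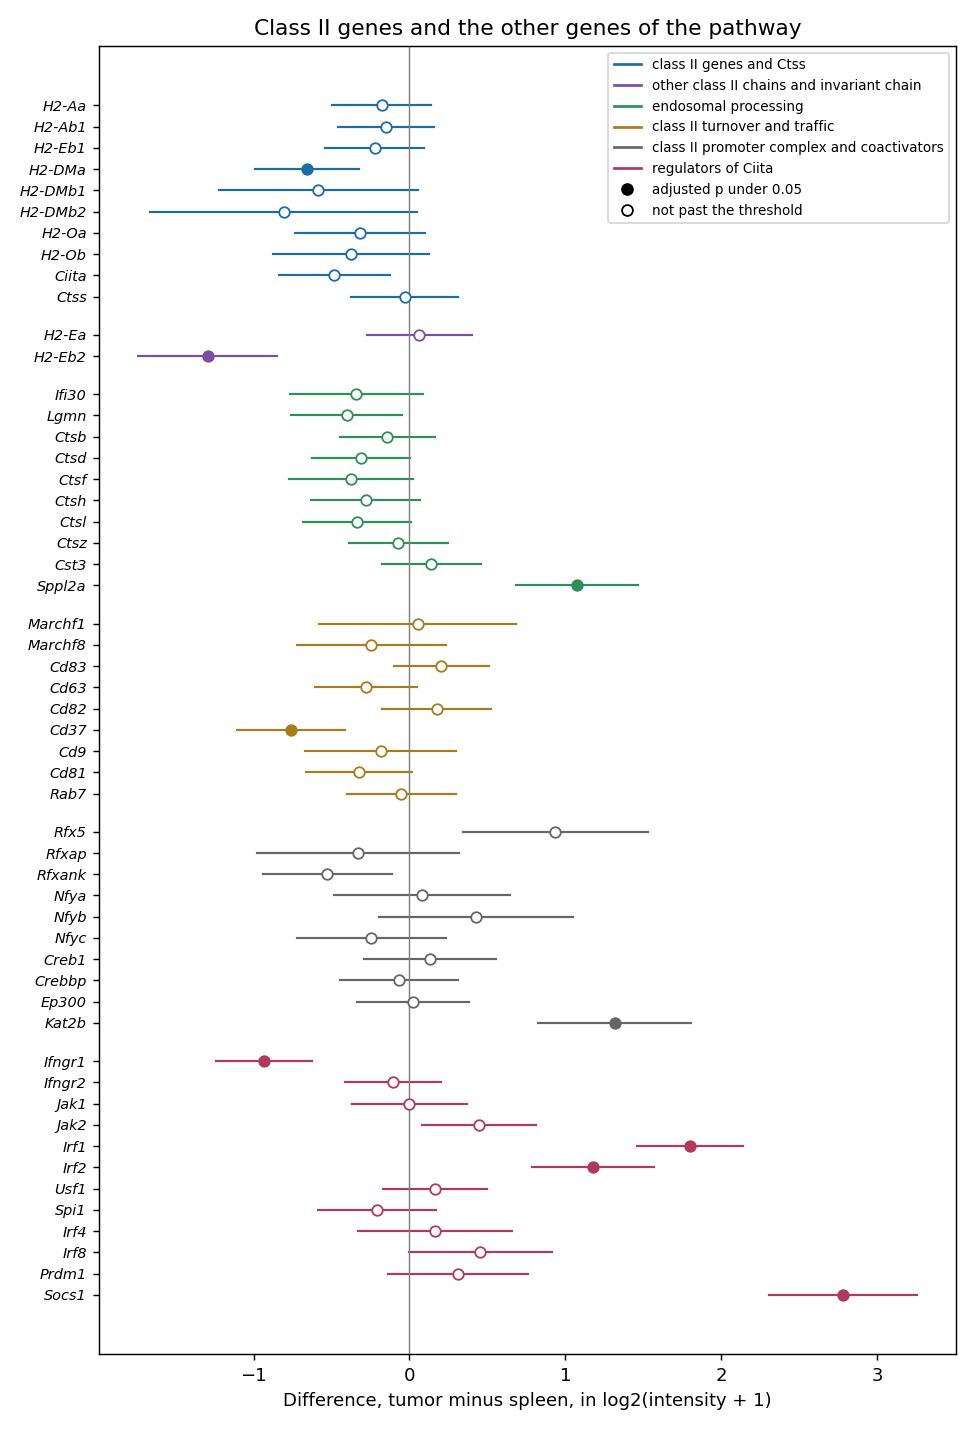
Difference, tumor minus spleen, in log2(intensity + 1), for the 10 genes and 43 other tested genes of the pathway by role, with lines for the 95% interval and filled points for an adjusted p under 0.05. The largest rise is that of Socs1 (2.78) and the largest fall that of H2-Eb2 (-1.30), while H2-DMa is the filled point among the 10 genes.

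Markers of other cells that carry class II were read beside these values. Of all genes tested limma called 5.73% higher and 4.85% lower, or 11.7% higher and 17.3% lower with the replicate block. Of the conventional dendritic cell list 3 of 9 tested genes rose and 1 fell, and its summed intensity was 6534 to 6928 on the spleen arrays and 7100 to 7574 on the tumor arrays. Ccr7 went from 11.56 to 12.11 (0.54 ± 0.14, adjusted p = 0.0393), Zbtb46 stood at 0.89 ± 0.17 (adjusted p = 0.0120), Dpp4 at 0.87 ± 0.20 (adjusted p = 0.0293) and Itgax at -0.85. Ccr7 and Itgax were the brightest genes of this list, so they weighed most in its sum. The call of Ccr7 was lost without any one of the 6 arrays (adjusted p up to 0.158), that of Dpp4 without spleen 1, spleen 2, tumor 1 or tumor 3, and that of Zbtb46 without spleen 1, spleen 2 or tumor 2. Under the block 3 of the 9 rose and 2 fell, with Cd209a added (adjusted p = 0.0439 in that fit). Of the macrophage list 0 of 7 tested genes rose and 2 fell (C1qc by 0.74 and C1qb by 0.64), and limma's unadjusted p was under 0.05 for 0 higher and 3 lower. The replicate block gave 1 higher (Timd4, adjusted p = 0.0215) and 4 lower, with Adgre1 (adjusted p = 0.00258) and C1qa (adjusted p = 0.0164) added. The summed intensity of the macrophage list was 10586 to 11456 in spleen and 8391 to 8887 in tumor, with Cd68 at 12.54 and 12.28. Without spleen 1 or spleen 2 neither C1q gene was called, nor C1qc without tumor 2 or C1qb without tumor 1 (adjusted p up to 0.132). No B cell marker of 8 tested was called, with 0 at an unadjusted p under 0.05 by limma in either direction. The summed intensity of that list was 165 to 258 in spleen and 151 to 226 in tumor, and Ms4a1, which encodes CD20 and was chosen after its value was seen, had levels of 3.97 and 3.83, while Blk (5.12 and 5.47) and Cd79b (4.97 and 4.46) were its brightest. In the plasmacytoid dendritic cell list Tcf4 rose by 1.92 ± 0.23 (adjusted p = 0.00115) and 5 of 6 tested genes were not called. Siglech stood at 0.10, Ly6d at 0.23 and Pacsin1 at -0.19, and the sum was 315 to 457 in spleen and 753 to 1230 in tumor. The part of these other cell types in the class II differences was not tested.

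Markers of monocytes and of cells without class II were read in the same way, beside 5.73% of all genes tested called higher and 4.85% lower. Of 8 tested classical monocyte genes 3 rose (Vcan by 2.44 ± 0.16, Cd14 by 2.01 ± 0.17 and Ly6c2 by 1.48 ± 0.31) and 3 fell (Ccr2 by 0.93 ± 0.15, Itgam and Csf1r). The fall of Ccr2, the chemokine receptor of inflammatory monocytes, held in every alternative run (adjusted p = 0.00516), and the rise of Ly6c2 (adjusted p = 0.0186) was lost without spleen 1 or spleen 2 (adjusted p up to 0.0713). The list was led in level by Chil3 (12.89 and 12.77) and Csf1r (11.39 and 10.82), and had a sum of 11523 to 13131 in spleen and 11196 to 11969 in tumor. Csf1r fell by 0.57 ± 0.15 (adjusted p = 0.0428), a call lost without any one array other than tumor 3. Of 8 neutrophil genes none was called, with 0 at an unadjusted p under 0.05 by limma. S100a8 stood at -0.37 and was called lower with the replicate block (adjusted p = 0.0207), S100a9 at -0.29 and Ngp at -0.04, and the neutrophil sum was 1320 to 1402 in spleen and 1135 to 1221 in tumor. Of 9 tested T and NK cell genes 1 rose (Il7r, by 0.57) and 1 fell (Cd3g, by 1.36), with Cd3d, chosen after its value was seen, at 4.69 in both groups and a sum of 2355 to 2662 in spleen and 3193 to 3661 in tumor. Il7r carried that sum, at 11.07 and 11.64, and the next highest group mean in the list was that of Cd3g in spleen, at 6.70. The rise of Il7r was called without spleen 3 only, among fits that leave out an array (adjusted p up to 0.193).

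Genes whose pattern over the 6 arrays was most like the mean level of H2-Aa, H2-Ab1 and H2-Eb1 were sought among 9220 tested genes above the median level. They were Hps6 (Pearson r = 0.997), Zc3h3 (0.997), Flna (0.994), Gm4945 (0.992) and Rn7sk (0.991). Their differences ran from -0.51 (Hps6) to -0.08 (Rn7sk) and none was called, though Hps6 (adjusted p = 0.0116) and Flna (adjusted p = 0.01999) were lower with the replicate block. Of the other 7 genes described here H2-DMa (0.941) and Ciita (0.906) were the most like that mean, and Ctss (0.249) the least. These correlations share the same 6 arrays and serve as a description.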

How the data were processed

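The authors deposited 1 linear intensity per probe set and array, made with RMA per the submitters' processing notes. The version, the settings and the build remain not given in the sources used here. Array distributions differ. Of 41345 probe sets 23521 carry 1 gene symbol, 1814 several and 16010 none listed, from GEO's platform annotation with symbols updated through Entrez numbers (RefSeq, GRCm38.p6). The probe set with the highest mean stood for a gene. Genes above the 25th percentile of their array on at least 3 arrays were tested on log2(intensity + 1) with limma 3.58.1 (R 4.3.3, lmFit and eBayes, two-sided, group as the only term, Benjamini-Hochberg over 18458 genes, called at an adjusted p under 0.05). The number of arrays limits the precision. An exact test of 3 against 3 cannot go below p = 0.1. The script was tested on simulated data.

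To see whether replicate numbers pair the arrays, deviations from group means were compared, and correlated across genes at 0.36, 0.44 and 0.71 for numbers 1, 2 and 3. Blocked values are printed where they change the call of a named gene. Genes that are not named enter only the block counts of their lists. Unequal numbers correlated too (0.47 for spleen 1 and tumor 2, 0.35 for spleen 2 and tumor 1), and no label gives a number's meaning. Arrays numbered 3 correlated with those numbered 1 or 2 of the other group at -0.59 to -0.44. The check thus sets number 3 apart and does not show that numbers 1 and 2 are pairs.

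Genes and lists were chosen with earlier results of these data known. Named were the 10 genes, up to 4 called genes per direction of each pathway list (otherwise the 2 of smallest p), the tested neighbours between H2-Oa and H2-Eb2, of each marker list the 2 highest levels and 2 largest differences, and the 5 genes most like the mean of the 3 chains. Outside this rule stand the genes behind the gate, and Cd81, Cd209a, Timd4, Adgre1 and C1qa, named for their call under the block. Siglech, Ccr2 and H2-Ea are outside it too. The remaining genes are marked as chosen after their values were seen. Promoter motifs were searched on both strands with Python 3.11.15.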

Additional observations from a re-analysis of the deposited data

How the results depend on the processing

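Over 17 alternatives, 146 of 170 values of the 10 genes kept their direction and their side of the threshold, 4 lost the call (all H2-DMa), 16 gained it and 4 changed sign without a call (all Ctss). H2-Aa, H2-Ab1, H2-Eb1 and Ctss were called under none. The 10 genes called lower, 1 as reported, numbered 2 under quantile normalization, median centring, cyclic loess or the arrays numbered 1 and 2 alone, 6 with the replicate block or with number 3 set apart as a term (added after seeing the data), 0 at an adjusted p under 0.01, and 0 to 2 with an array left out. Calls over all genes, 1953 as reported, numbered 3508 under quantile normalization, 3290 under median centring, 3182 under cyclic loess, 5348 with the replicate block, 2942 among numbers 1 and 2, 5468 with number 3 set apart, 961 at an adjusted p under 0.01, and 1012 to 1926 with an array left out (1148 without spleen 1, 1030 without spleen 2 and 1012 without tumor 1). Pathway genes called, 8 as reported, numbered 15 under quantile normalization, 19 with the replicate block and 21 with number 3 set apart. The causes were not tested. No alternative called any of the 10 genes higher, and H2-Ea, near the 25th percentile of its arrays, is limited by signal.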
